A study of Mus musculus with 6 samples.

Results

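Integrins are cell-surface receptors made of 1 α chain and 1 β chain that join the matrix outside a cell to its actin skeleton, and laminins are matrix proteins made of 1 α, 1 β and 1 γ chain that form the basement membrane. A chain reaches the surface or the matrix as part of such a complex, so the set of chains a cell transcribes limits the complexes it can build. In the sympathetic nervous system laminin and its integrin receptors are known for guiding neural crest cells and the outgrowth of neurites.

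The genes described here are the 37 protein-coding mouse genes whose symbol begins with Itga, is Itgb followed by 1 digit, or names a laminin α, β or γ chain. All 37 are in the deposited table of 43629 mouse genes, 18 of them integrin α chains, 8 integrin β chains, 5 laminin α chains, 3 laminin β chains and 3 laminin γ chains. The cells were M1, a neuroblastoma line from mouse, and the RNA-seq libraries were made on day 6 of induction of a short hairpin RNA with doxycycline (4 to 6 µg/ml). In 1 group of 3 libraries the hairpin was non-targeting (shNT; genotype given as WT), and in the other group of 3 it was directed at Igf2bp1 (shIGF2BP1; genotype given as IGF2BP1 knockdown). Both groups received doxycycline. The labels name 1 hairpin against Igf2bp1 and do not say whether the replicates were separate cultures, so effects of that hairpin sequence and of its target cannot be told apart, and p-values measure only a spread that may be technical.

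The 6 libraries held 25119655 to 35373076 counts, and the test covered 13445 genes. Values are CPM (counts scaled to library size, with TMM factors), and levels of different genes are compared as CPM per kilobase of exon. The targeted gene, Igf2bp1, had 1.25, 5.14 and 6.08 CPM in shNT and 2.56, 0.992 and 11.3 CPM in the libraries labelled shIGF2BP1, so its loss was not seen in the mRNA (log2 fold change 0.25, edgeR adjusted p = 0.966). Directions below therefore compare libraries by their labels and not by a measured loss of Igf2bp1. Of 12 neuroblastoma and sympathetic markers, 4 were at 0 in all libraries (Th, Dbh and Chga among them), while Hand2 had 257 to 480 CPM. Summed over the list, the neuroblastoma and sympathetic markers came to 346 to 571 CPM in shNT and 511 to 541 CPM in shIGF2BP1. Fibroblast markers summed higher, to 635 to 956 and 579 to 1060 CPM, most of it Col1a1 and Col3a1. Of the other fibroblast markers, Pdgfrb had a mean of 59.8 CPM and Pdgfra of 17.2 CPM. Lum was at 0, Thy1 had 1 count in all and Col1a2 had at most 0.328 CPM. Epithelial markers reached at most 0.255 CPM and platelet markers 0.364 CPM. Leukocyte markers summed to 8.25 to 15.5 CPM in shNT and 4.63 to 6.38 CPM in shIGF2BP1, most of it Cd68, and endothelial markers to 37.4 to 54.5 and 31.4 to 73.8 CPM, most of it Pecam1.

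The M1 libraries held mRNA of chains from each of the 5 families. A chain was called detected when it reached 1 CPM in each of the 6 libraries. By that rule 18 of the 37 chains were detected, against 26.1% of all genes in the table. Those genes include non-coding ones, whereas the chains are all protein-coding, so these shares are not like for like. The share among protein-coding genes was not determined. The detected chains were 8 of 18 integrin α chains, 5 of 8 integrin β chains, 2 of 5 laminin α chains, 2 of 3 laminin β chains and 1 of 3 laminin γ chains. A further 3 chains, Itgb2 and Lamb3 among them, had enough counts to be tested but did not reach 1 CPM in every library. The remaining 16 were too low to test, and 6 of those, Itga2, Itga4, Itga8, Itga11, Itgad and Lama1, had 0 counts in all libraries. A count of 0 allows up to 3 counts, or 0.085 to 0.114 CPM depending on the library, for counting error only.

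**Figure D1:**
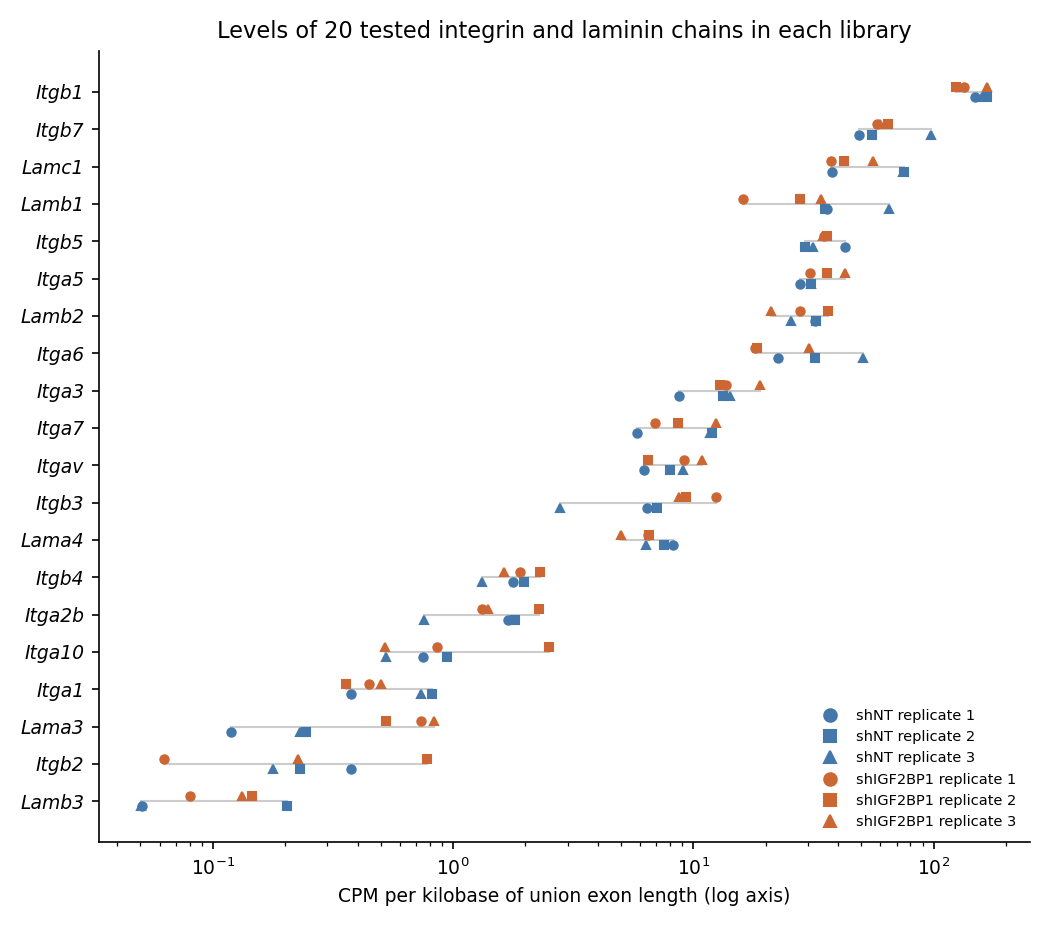
CPM per kilobase of exon (log axis) of 20 tested chains in each library, with shNT in blue, shIGF2BP1 in orange and 1 marker shape per replicate number. Itgb1 stands above all other chains in every library, and the detected chains span from 149.7 (Itgb1) to 0.448 (Lama3) in their means.

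Itgb1, the β chain shared by most integrins, was the most abundant chain per kilobase, at 149.7 ± 17.9 CPM per kilobase (SD, n = 6 libraries), and its lowest library exceeded the highest library of any other chain. Below it came Itgb7 at 63.9, Lamc1 at 53.8, Lamb1 at 35.7, Itgb5 at 34.8, Itga5 at 33.1, Lamb2 at 29.2 and Itga6 at 28.6 CPM per kilobase. Neighbours in this order overlapped in their ranges over the libraries, so adjacent ranks are not resolved, although Itgb7 lay above Itgb5, Itga5, Lamb2 and Itga6 in each library. A lower tier held Itga3, Itga7, Itgav, Itgb3 and Lama4, with means from 13.6 down to 6.69 CPM per kilobase. Lama4 was separated from the next chain, Itgb4, which had 1.81 CPM per kilobase. Itga2b, Itga10, Itga1 and Lama3 followed at 1.54 to 0.448 CPM per kilobase. These levels divide by the length of all annotated exons. With the longest coding transcript instead, Itgb1 and Itgb7 were still first and second, while Itga6 moved from 28.6 to 59.99 CPM per kilobase and Lamb1 from 35.7 to 61.3, which placed both above Lamc1. Itga7 moved from 9.59 to 19.3 and Lama4 from 6.69 to 13.3 CPM per kilobase, so the order of these chains depends on the length used.

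The detected chains allowed 11 of 24 integrin pairs known in mammals. This is read from mRNA alone. Protein was not measured here, and bulk RNA does not show whether the chains of a complex are made in the same cell. Of 12 α chains that pair with Itgb1, 7 were detected: the laminin-binding Itga3, Itga6 and Itga7, the fibronectin receptor chain Itga5, Itgav, and the collagen-binding Itga1 and Itga10. All 4 laminin-binding pairs could be formed, counting that of Itga6 with Itgb4, the β chain of hemidesmosomes. Of 8 pairs that bind the RGD motif of fibronectin and vitronectin, 5 could be formed, those of Itga5 and Itgav with Itgb1, of Itgav with Itgb3 and Itgb5, and of Itga2b with Itgb3. Of 4 collagen-binding pairs 2 could be formed, with Itga2 and Itga11 missing. None of the 8 leukocyte and VCAM-binding pairs could be formed. At a stricter 5 CPM in every library, 15 chains and 9 pairs remained, without the pairs of Itga10 and Itga2b.

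**Figure D2:**
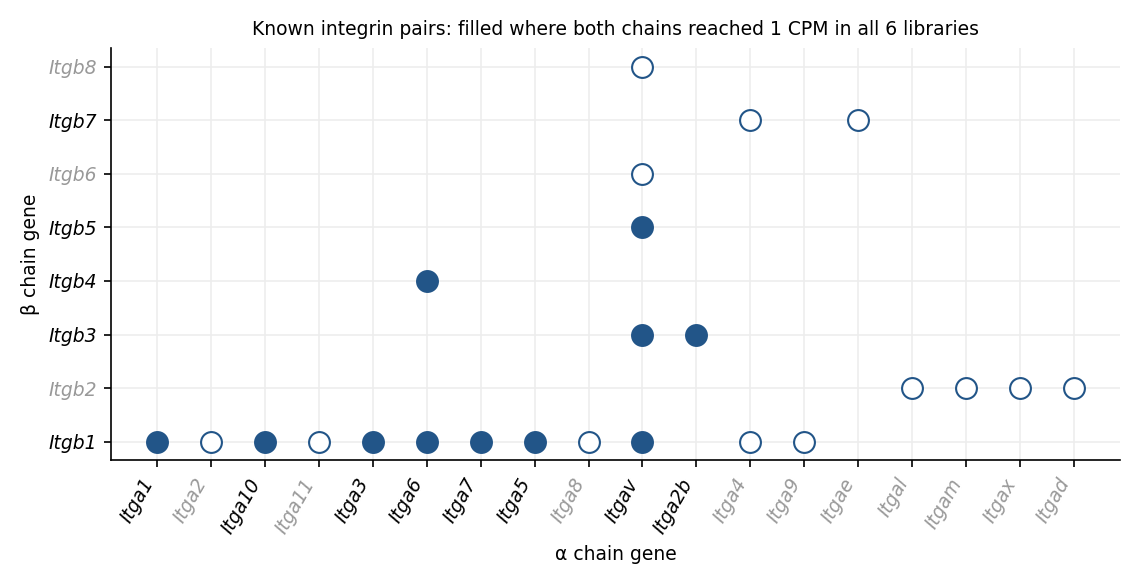
Each circle is 1 of 24 known integrin pairs, placed at its α chain gene (x axis) and β chain gene (y axis). It is filled where both genes reached 1 CPM in all 6 libraries (11 pairs), and gene names in grey mark chains that did not.

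Itgb1 had 607, 678 and 649 CPM in shNT and 546, 504 and 682 CPM in shIGF2BP1, so the groups overlapped. The α chains that pair with it, summed per kilobase, came to 0.484, 0.589 and 0.739 of the Itgb1 level in shNT and 0.595, 0.691 and 0.696 in shIGF2BP1. Itgb1 mRNA thus exceeded the sum of its α partners in each library when all exons set the length. With the longest transcript the ratio averaged 0.914 and was above 1 in shNT replicate 3. Itga5 and Itga6 made up most of the partners: Itga5 gave 26.1% to 42.2% of their sum and Itga6 21.6% to 43.1%. With the longest transcript Itga5 gave 17.6% to 32.5% and Itga6 30.9% to 54%, so which of them is larger depends on the length used.

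Itgb7 had the second-highest level per kilobase although its partners had 13 counts between them. Itgb7 encodes the β chain of the lymphocyte homing receptors, in which it pairs with Itga4 or Itgae. It had 135, 154 and 269 CPM in shNT and 161, 178 and 166 CPM in shIGF2BP1. The groups overlapped, with shNT replicate 3 the highest library. Itga4 had 0 counts in all 6 libraries, and Itgae, the α chain of epithelial T cells, had 1, 4 and 0 counts in shNT and 2, 1 and 5 in shIGF2BP1. Of 10 leukocyte markers 5 had 0 counts throughout (Adgre1, Cd3e, Tyrobp and Laptm5 among them) and Ptprc had 1 count in all, while Cd68 had 7.78 to 14.6 CPM in shNT and 3.13 to 5.56 CPM in shIGF2BP1. On chromosome 15 Itgb7 occupies the minus strand from 102215995 to 102231944 in GRCm38, and its 3' end is 388 bases from that of Zfp740, a zinc finger gene on the plus strand with a mean of 221 CPM. The retinoic acid receptor gene Rarg lies 2993 bases upstream of Itgb7 on the same strand, with a mean of 170 CPM. The strand setting of the counting is not given in the sources used here, and the part of either neighbour in the Itgb7 count was not tested.

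The promoter sequences of Itgb7 and Itga4 are printed because these chains form 1 receptor and Itgb7 was abundant while Itga4 was at 0. That of Lamb1 is printed because every shIGF2BP1 library lay below every shNT library, although the edgeR adjusted p was 0.684. The sequences are the reference sequences of RefSeq on GRCm38.p6, 5′ to 3′ on the gene's strand. They end where the RefSeq or GENCODE gene begins, whichever comes first. Capitals mark CpG dinucleotides, which are dense at many broadly active promoters. The windows are chr15:102231945-102232185 (minus strand) for Itgb7, chr2:79255176-79255425 (plus strand) for Itga4 and chr12:31265043-31265233 (plus strand) for Lamb1.
Itgb7: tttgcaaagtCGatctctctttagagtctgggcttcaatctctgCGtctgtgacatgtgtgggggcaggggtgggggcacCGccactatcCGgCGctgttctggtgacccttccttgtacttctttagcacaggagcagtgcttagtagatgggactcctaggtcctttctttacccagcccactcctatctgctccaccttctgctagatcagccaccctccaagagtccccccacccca
Itga4: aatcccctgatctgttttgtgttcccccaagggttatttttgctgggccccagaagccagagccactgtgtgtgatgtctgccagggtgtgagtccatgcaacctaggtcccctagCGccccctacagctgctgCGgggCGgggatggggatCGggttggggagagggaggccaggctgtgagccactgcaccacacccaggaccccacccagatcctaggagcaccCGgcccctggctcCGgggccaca
Lamb1: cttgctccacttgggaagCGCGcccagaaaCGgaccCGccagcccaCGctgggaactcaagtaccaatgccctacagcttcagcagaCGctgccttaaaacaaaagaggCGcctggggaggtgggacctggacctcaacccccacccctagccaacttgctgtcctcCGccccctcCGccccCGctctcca

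The abundant Itgb7 and the undetected Itga4 had similar CpG counts, 5 in 241 bases and 6 in 250 bases, and Lamb1 had 10 in 191 bases. RefSeq promoters matched 23 of the 37 members. In the 250 bases before the start, 11 detected members had 2 to 22 CpG over 12 annotated starts with a median of 10.5, and 12 members that were not detected had 0 to 19 over 14 starts with a median of 8. The median over 32851 starts of all genes was 6. The windows of Lama2, Itga9, Itgb8 and Lamb3 and of an alternative start of Itgb6, none of them detected, lie wholly inside the gene in GENCODE. Among detected members only that of an alternative Itga3 start does, so the medians do not compare gene starts alone. The letters TATAAA, searched on both strands, occurred in 0% of the members' windows and in 12.4% of the windows of all genes. The members' windows are few (12 and 14 starts), and this difference was not tested.

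Some of the members lie close to each other. Itga1 and Itga2, collagen-binding chains on the minus strand of chromosome 13, are 20995 bases apart, and Itga1 had 6.69 to 15.2 CPM while Itga2 was at 0. The leukocyte chains Itgam, Itgax and Itgad, which form a cluster on chromosome 7, had 3, 1 and 0 counts in total.

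The laminin chains allowed 4 of 15 known trimers, again as read from bulk mRNA alone. Lama4, the α chain of vessel and mesenchymal laminins, and Lama3, the α chain of skin laminins, were the detected α chains. Combined with Lamb1 or Lamb2 and with Lamc1, they gave laminins 411, 421, 311 and 321. Lama1, the α chain of early embryonic laminin, was at 0, and Lama2, of muscle and Schwann cell laminin, and Lama5, the widespread epithelial chain, had 57 and 30 counts in all. Lamb3, a β chain of skin laminin, had 0.333 to 1.35 CPM. At 5 CPM in every library 2 trimers remained, laminins 411 and 421.

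Laminin α chain mRNA was scarce next to β and γ. The α chains summed to 5.86 to 8.38 CPM per kilobase over the libraries, the β chains to 43.8 to 90.8 and the γ chains to 37.5 to 75.5. The β sum was 6.09 to 13.7 times the α sum and the γ sum 4.52 to 11.3 times. With the longest transcript the mean γ to α ratio was 4.33 in place of 7.68. The γ sum was almost all Lamc1 (99.7% to 99.96%), and the β sum was shared by Lamb1 and Lamb2, with Lamb1 at 36.6% to 71.8%.

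**Figure D3:**
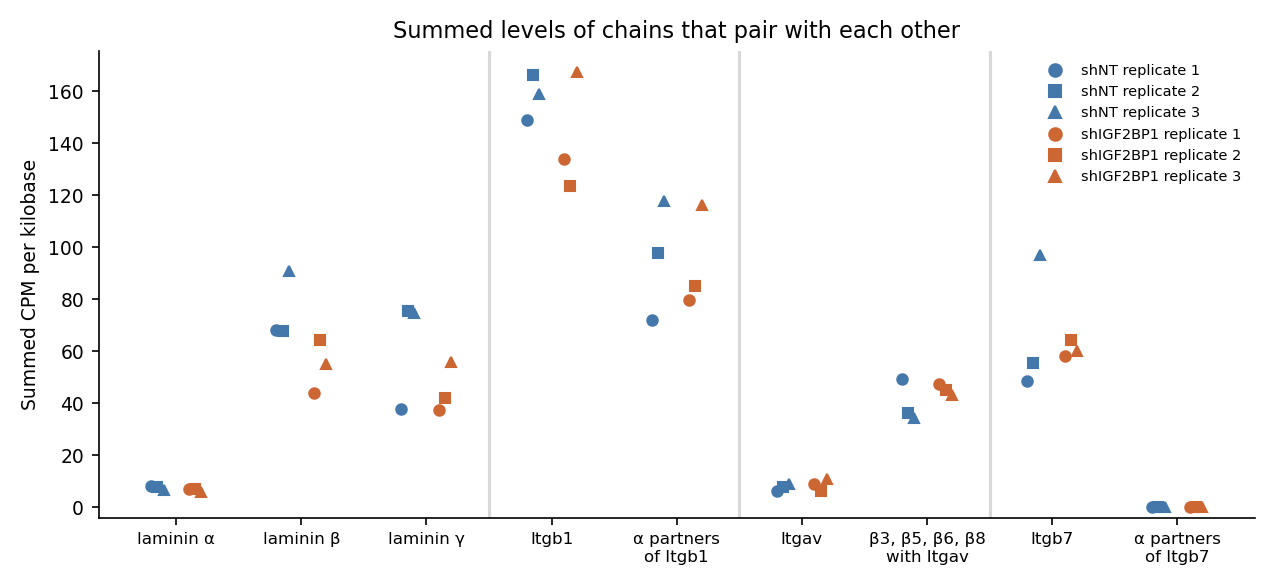
Summed CPM per kilobase of chains that assemble with each other, for each library (shNT blue, shIGF2BP1 orange, 1 marker shape per replicate number). Laminin α lies at 5.86 to 8.38, below laminin β and γ, and Itgb7 lies far above its α partners, whose sums are at most 0.0398.

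The libraries labelled shIGF2BP1 were compared with shNT to ask which of these chains differ with the hairpin. Of the 21 tested members 0 passed an edgeR adjusted p of 0.05, where 0.0223% of all tested genes did, and 3 had an unadjusted p under 0.05, where 7.16% of all tested genes did. Higher in shIGF2BP1 among those 3 were Itgb3 and Lama3 (3.17% of tested genes), and lower was Lamb1 (3.99%). The same 3 members were those whose groups did not overlap, 2 higher (6.06% of tested genes) and 1 lower (5.59%). Over the 21 members 11 log2 fold changes were positive and 10 negative with a median of 0.03, beside 48.5% positive and a median of -0.01 over all tested genes. Of the 21, 19 had at least 10 counts in every library. DESeq2, run as an alternative, called 1 member, Lama3 (adjusted p = 0.0012), where it called 0.61% of all genes, and gave 4 members an unadjusted p under 0.05, Itga6 being added, where 7.94% of all genes had one.

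**Figure D4:**
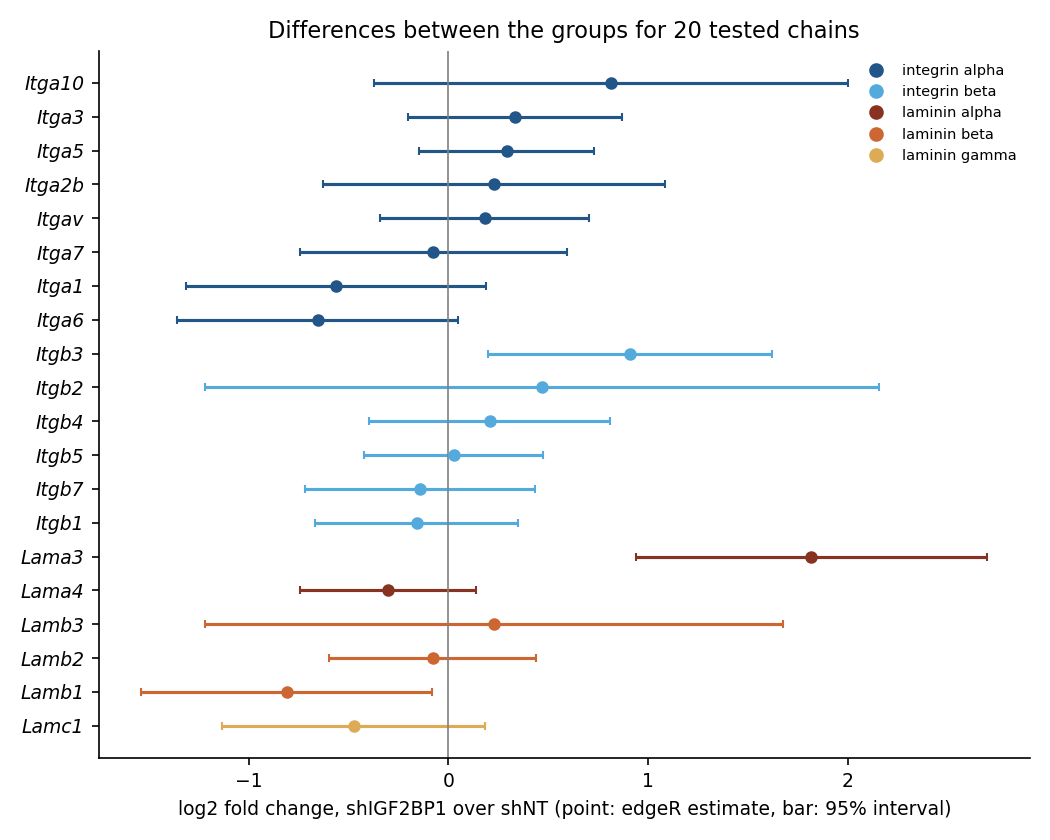
Log2 fold change of shIGF2BP1 over shNT for 20 tested chains, coloured by family (point, edgeR estimate; bar, 95% interval; n = 3 libraries per group). The intervals of Itgb3, Lama3 and Lamb1 leave out 0 before any adjustment, and the other 17 include it.

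Lama3 had the largest fold difference of the tested chains. It had 1.28, 2.61 and 2.48 CPM in shNT and 7.93, 5.67 and 8.93 CPM in shIGF2BP1, from 38, 89 and 82 counts and 208, 200 and 245 counts. Every shIGF2BP1 library exceeded every shNT library. In bulk RNA such as this, more cells with the transcript and more of it per cell cannot be told apart. Means were 2.12 ± 0.733 and 7.51 ± 1.67 CPM (SD, n = 3 each). The 3.52-fold difference corresponded to 1.82 ± 0.40 (SE) on the log2 scale, and its 95% interval ran from 0.94 to 2.70. The edgeR adjusted p was 0.326 (unadjusted p = 0.000855). Without a filter on low counts the edgeR adjusted p was 0.0122. Leaving out single libraries gave log2 fold changes of 1.56 to 2.00. Lama3 lies on the plus strand of chromosome 18. Its share of the laminin α sum per kilobase was 1.42%, 3.09% and 3.48% in shNT and 10.2%, 7.47% and 14.2% in shIGF2BP1, so Lama4 was the main α chain in each library. With the longest transcript as the length the share was 0.732%, 1.603% and 1.81% in shNT and 5.51%, 3.96% and 7.79% in shIGF2BP1. Gene counts do not separate the short and long Lama3 transcripts. Epithelial markers, which Lama3 accompanies in skin, summed to 0.0302 to 0.117 CPM in shNT and 0.0381 to 0.255 CPM in shIGF2BP1 over 7 genes, with Krt5 and Cldn4 at 0.

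Lamb1, the β chain of the most widespread laminins, had 357, 350 and 647 CPM in shNT and 159, 276 and 337 CPM in shIGF2BP1. The groups did not overlap, but the highest shIGF2BP1 library lay close to the shNT replicates 1 and 2. On the log2 scale the difference was -0.81 ± 0.33 (SE; 95% interval -1.54 to -0.08; edgeR adjusted p = 0.684, unadjusted p = 0.0323). It was -0.46 without shNT replicate 3 (unadjusted p = 0.158), and -0.56 without shIGF2BP1 replicate 1 (unadjusted p = 0.139). Lamb1 (ENSMUSG00000002900) lies on the plus strand of chromosome 12, from 31265234 to 31329644. Lamb2, the alternative β chain, which is known from the neuromuscular junction and kidney, had 195, 197 and 155 CPM in shNT and 168, 222 and 128 CPM in shIGF2BP1, with overlapping groups. Lamb1 gave 52.8%, 52.1% and 71.8% of the laminin β sum in shNT and 36.6%, 43.2% and 61.7% in shIGF2BP1, and these shares overlapped as well.

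Lamc1 and Lama4 also had lower means in shIGF2BP1, within the spread, whereas Lama3 had a higher one (7.51 against 2.12 CPM). Lamc1, the common γ chain, had 313, 624 and 615 CPM in shNT and 310, 349 and 460 CPM in shIGF2BP1 (log2 fold change -0.47 ± 0.30 SE, edgeR adjusted p = 0.794). Lama4 had 99.1, 91.3 and 76.9 CPM in shNT and 77.8, 78.7 and 60.3 CPM in shIGF2BP1 (log2 fold change -0.30 ± 0.20 SE, edgeR adjusted p = 0.811). Both pairs of groups overlapped. Without shNT replicate 1, Lamc1 had an unadjusted p under 0.05 as well, at a log2 fold change of -0.73.

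Itgb3, the β chain of the vitronectin receptor, had 37.8, 41.6 and 16.4 CPM in shNT and 73.2, 55.2 and 51.5 CPM in shIGF2BP1. All shIGF2BP1 libraries were above all shNT libraries, and shNT replicate 3 was the lowest of the 6. The difference came to 0.91 ± 0.32 (SE) on the log2 scale (95% interval 0.20 to 1.62; edgeR adjusted p = 0.62, unadjusted p = 0.0167). It was 0.59 without shNT replicate 3, at an unadjusted p of 0.0274, and without shIGF2BP1 replicate 1 the unadjusted p was 0.0652. Itgb3 (ENSMUSG00000020689) lies on the plus strand of chromosome 11, from 104608000 to 104670476. Its α partner Itgav had 66.8, 86.1 and 97.4 CPM in shNT and 97.8, 69.7 and 116 CPM in shIGF2BP1. Itgb5, which pairs with Itgav as the more abundant Itgb1 also does, had 152, 104 and 112 CPM and 124, 127 and 123 CPM. Both overlapped between the groups. Per kilobase, Itgb3 stood at 0.150, 0.242 and 0.0885 of the Itgb5 level in shNT and 0.355, 0.261 and 0.253 in shIGF2BP1, so Itgb5 exceeded it in each library. Itga2b, the platelet partner of Itgb3, had 4.14 to 9.86 CPM in shNT and 7.17 to 12.4 CPM in shIGF2BP1, while the platelet markers Gp9 and Gp1ba were at 0.

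**Figure D5:**
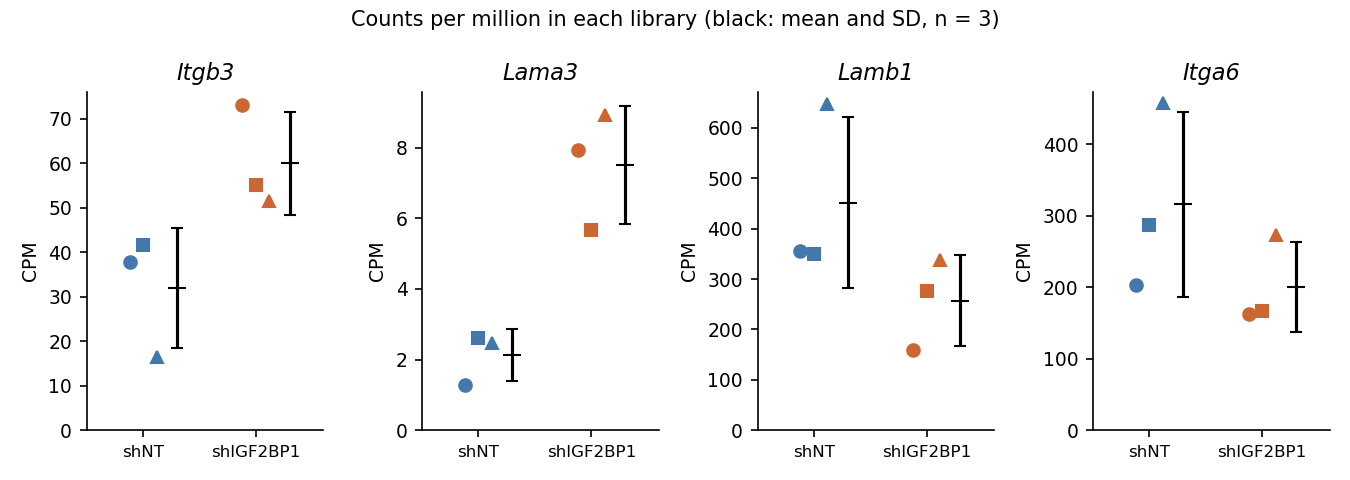
CPM of Itgb3, Lama3, Lamb1 and Itga6 in each library (linear axes from 0, 1 marker shape per replicate number), with the mean and SD of the 3 libraries in black. Groups are apart for Itgb3, Lama3 and Lamb1 and overlap for Itga6.

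Itga6, the laminin receptor chain of neural and epithelial stem cells, had 203, 288 and 457 CPM in shNT and 162, 166 and 274 CPM in shIGF2BP1. The groups overlapped because shIGF2BP1 replicate 3 lay above shNT replicate 1. The log2 fold change was -0.66 ± 0.32 (SE, edgeR adjusted p = 0.733; unadjusted p = 0.0647), and -0.29 without shNT replicate 3. Of the other laminin-binding α chains, Itga3 had a log2 fold change of 0.33 ± 0.24 (SE) and Itga7 of -0.08 ± 0.30 (SE), with edgeR adjusted p values of 0.835 and 0.975. Itga6 gave 60.8%, 55.8% and 66.2% of the laminin-binding α sum per kilobase in shNT and 46.7%, 46.1% and 49.1% in shIGF2BP1. These shares did not overlap between the groups; they were computed after the values were seen and were not tested.

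The remaining integrin chains overlapped between the groups. Itga5, which binds fibronectin with Itgb1, had 136, 153 and 151 CPM in shNT and 151, 177 and 211 CPM in shIGF2BP1 (log2 fold change 0.29 ± 0.20 SE, edgeR adjusted p = 0.815). Itga1 had 6.97 to 15.2 CPM in shNT and 6.69 to 9.29 CPM in shIGF2BP1. Itga10, the collagen receptor chain of cartilage, had 2.72 to 4.87 CPM and 2.70 to 13.0 CPM, and leaving out shIGF2BP1 replicate 2 took its log2 fold change from 0.81 to -0.085. Itgb4 had 9.25 to 13.8 CPM and 11.4 to 16.1 CPM. Itgb2, the β chain of leukocytes, had 0.544 to 1.15 CPM in shNT and 0.191 to 2.38 CPM in shIGF2BP1, with 84 of its counts in shIGF2BP1 replicate 2.

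Genes that work with these chains, from lists of partners, gave 0 members past an edgeR adjusted p of 0.05. Of 35 cytoplasmic partners of integrins 30 were tested, 13 with positive and 17 with negative log2 fold changes and a median of -0.01, the same as over all tested genes. At an unadjusted p under 0.05, 3 of the 30 were higher and 0 lower, beside 3.17% and 3.99% of all tested genes. The adaptor Fermt3, a kindlin of blood cells that activates integrins, had 0.606, 0.293 and 0.574 CPM in shNT and 1.68, 2.41 and 1.71 CPM in shIGF2BP1 (edgeR adjusted p = 0.478). The focal adhesion kinase relative Ptk2b had 4.88, 6.98 and 3.02 CPM and 14.4, 11.4 and 11.9 CPM (edgeR adjusted p = 0.478), and Itgb1bp2, a muscle protein that binds Itgb1 tails, had 0.27 to 0.734 CPM and 0.763 to 1.53 CPM. The most abundant members, the actin crosslinker Flna and the integrin activator Tln1, had log2 fold changes of -0.06 ± 0.37 and 0.22 ± 0.33 (SE).

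Basement membrane partners of laminin had 12 tested members of 20, 5 positive and 7 negative, with a median of -0.20. Col4a6, a type IV collagen chain, had 157, 209 and 158 CPM in shNT and 124, 114 and 111 CPM in shIGF2BP1 (edgeR adjusted p = 0.60), and Col15a1, a basement membrane collagen, had 0.202 to 0.333 CPM and 0.482 to 0.802 CPM. These were the 2 of 12 with an unadjusted p under 0.05, which 7.16% of all tested genes had. Perlecan (Hspg2), the main heparan sulphate proteoglycan of the basement membrane, had 534, 1112 and 1423 CPM in shNT and 572, 817 and 1004 CPM in shIGF2BP1, and the matrix protein Sparc had 298 to 770 CPM and 224 to 679 CPM. The laminin linker Nid2 was at 0.

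Among 28 other laminin receptors and membrane partners of integrins, 22 were tested, 7 positive and 15 negative, with a median of -0.15. Of the 22, 0 were higher and 3 lower at an unadjusted p under 0.05 (3.17% and 3.99% of all tested genes). Slc3a2, the heavy chain of amino acid transporters that also binds integrin β tails, had 452, 419 and 553 CPM in shNT and 185, 291 and 343 CPM in shIGF2BP1 (edgeR adjusted p = 0.60). The tetraspanin Cd82 had 34.2, 38.3 and 55.7 CPM and 23.6, 29.2 and 26.4 CPM (edgeR adjusted p = 0.606), and Sgce, a sarcoglycan of the dystroglycan complex, had 17.95, 15.96 and 17.2 CPM and 8.66, 9.81 and 10.9 CPM (edgeR adjusted p = 0.533). The most abundant were Rpsa, a ribosomal protein also described as a laminin receptor, with a log2 fold change of -0.22 ± 0.28 (SE), and Bsg, with -0.14 ± 0.26 (SE).

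Other integrin ligands had 17 tested members of 30, 8 positive and 9 negative, with a median of -0.21. Among these 17, 3 were higher and 4 lower at an unadjusted p under 0.05, where 3.17% and 3.99% of all tested genes were. The most abundant, fibronectin (Fn1), the ligand of Itga5 with Itgb1, had 1958, 2843 and 4080 CPM in shNT and 1122, 2083 and 1562 CPM in shIGF2BP1, with overlapping groups (log2 fold change -0.90 ± 0.35 SE, edgeR adjusted p = 0.682). Mfge8, an RGD ligand of Itgav with Itgb3 or Itgb5, had 428, 408 and 346 CPM and 269, 309 and 277 CPM (edgeR adjusted p = 0.687). Fibrillin 1 (Fbn1), which also carries an RGD motif, had 4.45, 8.80 and 1.72 CPM and 12.2, 10.4 and 13.1 CPM (edgeR adjusted p = 0.666), and the matricellular ligand Ccn2 had 0.404, 0.968 and 0.665 CPM and 1.79, 1.42 and 2.7 CPM (edgeR adjusted p = 0.606). Thbs2, with 137 to 159 CPM in shNT and 56.3 to 90.2 CPM in shIGF2BP1, and Postn, with at most 0.235 and 3.32 CPM, were 2 more. Fibroblast markers, which share Postn, Col3a1 and other collagen genes with these ligands, summed to 635 to 956 CPM in shNT and 579 to 1060 CPM in shIGF2BP1 over 10 genes. Most of the sum came in each library from collagen genes that are in both lists, and Lum was at 0. The part of fibroblast markers in the ligand values was not tested.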

How the data were processed

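The authors deposited raw read counts per mouse gene, 1 column per library, with no normalisation, as whole numbers and differing totals show. Tools listed in the submitters' processing notes are HTSeq, HISAT2 2.1.0 and bcl2fastq, with the build GRCm38; the annotation release and strand setting were not stated there. Symbols and exon lengths came from GENCODE M21 on GRCm38, which matched 42462 of 43629 gene IDs. The unmatched IDs held 0.155% of counts, and 92 spike-in rows at 0 were left out. Exons of 12 members overlap another annotated gene. Counts were tested with edgeR 4.0.16 in R 4.3.3 (TMM, robust quasi-likelihood F test, two-sided, no covariates) over the 13445 genes passing filterByExpr (minimum count 10, minimum total 15), with Benjamini-Hochberg adjustment over all of them and a threshold of 0.05. Alternatives were DESeq2 1.42.0 and those named in the closing section. In simulated data for this comparison, on 13445 genes, a small part of them were given known changes. There edgeR made 147 calls, 10 of them false, and found 33.3% of 2-fold and 90.7% of 4-fold changes. DESeq2 made 183 calls, 30 of them false, and found 51.2% and 88.9%. These shares depend on the number of changes put in and on the spread fitted from these data. They are therefore not the rates for 1 chain in the measured libraries. No libraries were duplicates (chi-square per gene 46.8 to 251). Pairs within shNT gave 162 to 251, pairs within shIGF2BP1 46.8 to 128 and pairs between the groups 82.8 to 227. The shNT libraries thus differed from each other as much as from shIGF2BP1 libraries. Members, lists and complexes were chosen with earlier results of these data known. Named genes were the members by detection or unadjusted p, and in each partner list up to 6 with an unadjusted p under 0.05 and the 2 most abundant. Some genes of the lists, 1 tested chain among them, are counted but not reported here by name.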

Additional observations from a re-analysis of the deposited data

How the results depend on the processing

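The number of genes past an adjusted p of 0.05 was 3 with the design used and was also 3 with library size only and with RLE size factors. It was 138 with no filter on low counts, 82 with DESeq2 and 18 with the replicate number as a block. With genes of mean CPM 5 or more it was 1, and when single libraries were left out it was 1 to 5. The cause of these differences was not tested. Without the filter the unadjusted edgeR p of the same counts also changed, for Lama3 from 0.000855 to 3.36e-05. Called members numbered 1, Lama3, with DESeq2 and with no filter, and 0 in the other 10 alternatives, of which the filter at mean CPM 5 removed Lama3. Members at an unadjusted p under 0.05 numbered 1 to 6 when single libraries were left out, where Lama3 was in each set; 1 was without shIGF2BP1 replicate 1 and 6 without shNT replicate 1. Detected chains stayed at 18 at 0.5 CPM, with library size only and without each library, and were 15 at 5 CPM. Of 237 log2 fold changes of 20 tested members under the alternatives, 14 had the other sign, in 8 members that were called nowhere, and 13 of these came from leaving out a library. Left-out libraries moved Itga10 from -0.085 to 1.19, Itga2b from -0.076 to 0.44, Itga7 from -0.34 to 0.099, Itgb2 from -0.83 to 0.95, Itgb5 from -0.082 to 0.21, Itgb7 from -0.33 to 0.22, Lamb2 from -0.29 to 0.094 and Lamb3 from -0.097 to 1.23. Lamb2 was 0.006 with library size only. Igf2bp1 was -0.047 with the replicate block and -1.24 to 0.76 without single libraries. Deviations from the group means correlated at 0.19, -0.09 and 0.28 between libraries of the same number and at -0.37 to 0.22 between libraries of different numbers. These values do not settle whether the numbers pair the samples, and the main test did not pair them. With the block 4 members had an unadjusted p under 0.05, Itga6 being added. The longest-transcript lengths, chosen after seeing the data, moved the ratio of laminin β to γ from 1.27 to 1.65 and left the order of Itgb3 and Itgb5. At this depth and spread a 2-fold difference of 1 chain would often be missed.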
